A study of Drosophila melanogaster with 4 samples.

Results

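Unfertilized Drosophila melanogaster eggs that stand outside the authors' pseudotime order were compared with embryos well advanced in that order, called the later embryos, to ask which maternal RNAs are lost in an egg that has no zygotic genome to transcribe. The order is a ranking of single transcriptomes along early development that the authors computed from the same RNA data. Of 34 eggs in the barcode table, 8 have a place in the order and 26 do not, and 18 of those 26 held at least 163287 UMIs (unique molecular identifiers, each counted as 1 captured RNA molecule), which is the smallest total in the order. These 18 left-out eggs were set against the 62 embryos of ranks 123 to 184 among 245 ranked embryos, so that 80 of the 384 individuals were members. The sources used here do not say why these eggs have no place in the order.

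Each individual was 1 whole frozen egg or embryo whose polyA RNA was read by CEL-Seq2, a method that tags the 3′ end of each molecule with a well barcode and a UMI, in 4 multiplexed libraries of 96 individuals. The embryos were hybrids of DGRP_737 virgin mothers and DGRP_352 fathers, both inbred lines of the Drosophila Genetic Reference Panel, kept at 25 °C and 60% humidity on a 12 h light cycle, and the series covers embryos of 0 to 3 h. No treatment was given. The labels state the cross for whole libraries only, so the mothers' line and the age of each egg are not given individually, and it is not stated whether individuals came from separate mothers or cages. The early reference, called the early embryos, was the 61 of ranks 1 to 61, with the 8 eggs of the order beside them.

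A Drosophila oocyte is loaded by its nurse cells with RNAs that run the first nuclear divisions, when the zygotic genome is almost silent. These maternal RNAs are then cleared by maternal factors that egg activation switches on, with or without fertilization, and by zygotic products such as microRNAs that appear once the embryo's own genome is transcribed. An unfertilized egg is activated as it is laid but makes no zygotic RNA, so it carries out the maternal clearance alone.

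The members differed in depth. The 18 left-out eggs held between 173233 and 735912 UMIs with a median of 450526, and the 62 later embryos between 169725 and 1195857 with a median of 672194. A median of 6428.5 genes was detected per egg and 7050.5 per embryo. The share of UMIs from mitochondrially encoded genes was 4.73% ± 1.29 (SD, n = 18) in the eggs and 3.81% ± 1.11 (SD, n = 62) in the embryos, a difference of 0.929 percentage points (two-sided permutation test, p = 0.0058), and it was higher in eggs within each of the 4 libraries (by 2.43, 0.664, 1.22 and 0.558 points). In both groups the individual with the lowest total had the highest mitochondrial share. These shares were 7.57% in the egg with 173233 UMIs and 7.66% in the later embryo with 169725. The test did not adjust for depth, and the part of depth in the difference was not tested. There was a median of 1178 endogenous UMIs per spike-in UMI in the left-out eggs, 1403 in the later embryos and 1902 in the early embryos. In whole eggs and embryos, fewer cells of a kind and less RNA per cell cannot be told apart, and all CPM values below (UMIs of a gene per 1000000 of the individual's own UMIs) are shares, not amounts per egg. All 8 eggs of the order and 8 left-out eggs carry the letter O in their names, while 10 left-out eggs carry A or B, as embryos do. Those 10 names fill gaps in the embryo numbering, and no embryo shares them. What the letters and the digits 1 to 3 in the names stand for is not stated. The 18 left-out eggs had digits 1, 2 and 3 in 3, 7 and 8 cases, against 1, 29 and 32 among the later embryos, and all 61 early embryos had digit 1.

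The left-out eggs carried almost no early zygotic RNA. Summed over 45 early zygotic genes, the eggs lay between 155 and 1312 CPM with a median of 260, and the later embryos between 1757 and 16571 CPM with a median of 12931. No egg reached the lowest embryo, and the early embryos, which come before the main wave of zygotic transcription, lay between 84.9 and 368 CPM. The mean of log2(CPM + 1) was 5.11 lower in the eggs (two-sided permutation test, p = 2e-05, the smallest that the resamples can give), and within libraries 1 to 4 the difference was −4.13, −5.41, −5.14 and −4.99. The order was computed from the same RNA data, so this difference is partly built into the choice of later embryos. The p-value is therefore no independent support for it. The 10 eggs with A or B in their names were among those below all later embryos. It is not stated whether zygotic RNA served to label those 10 as eggs. The highest egg, number 02 of letter O and digit 2, stood apart at 1312 CPM, and without it the eggs reached at most 489 CPM.

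**Figure D1:**
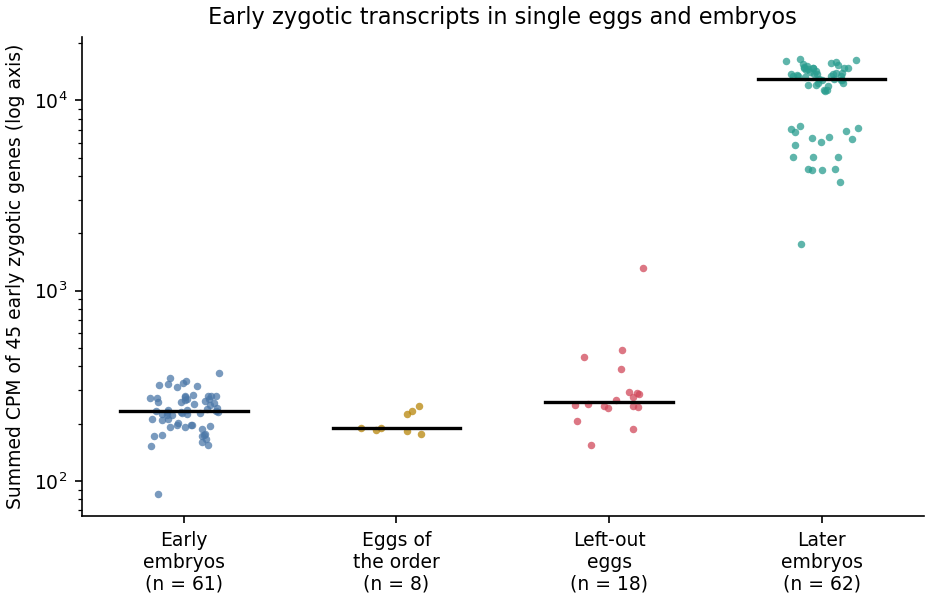
Summed CPM of 45 early zygotic genes (log axis) in each early embryo, egg of the order, left-out egg and later embryo; 1 point is 1 individual and the bar is the median. The left-out eggs lie between 155 and 1312 CPM, below all later embryos (1757 to 16571 CPM).

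Across all genes, UMI counts were tested with edgeR's quasi-likelihood test with the library as a covariate, and a gene was called at a Benjamini-Hochberg adjusted p under 0.05. Of 5399 genes tested, 999 (18.5%) were higher in the left-out eggs than in the later embryos and 1139 (21.1%) were lower. At least a 2-fold difference was seen for 224 of the higher and 634 of the lower genes. All 999 higher genes had a mean of at least 5 CPM in early embryos, so each was present early, and their median log2 difference was 0.70. Genes weak in eggs and later embryos alike had been removed by a filter on low counts, which favours such levels. The lower genes were of several kinds: 112 were under 1 CPM in early embryos and had a median log2 difference of −5.05, 149 were at 1 to 5 CPM with a median of −4.25, and 878 were at 5 CPM or more with a median of −0.82. Scaled to the ERCC spike-ins in place of the TMM factors that edgeR uses, 144 genes were higher and 751 lower. The share of called genes that were higher was thus 16.1% with spike-ins and 46.7% with TMM. The median log2 difference over all genes tested was −0.016 with spike-ins and −0.017 with TMM. Spike-in scaling rests on few UMIs, 93 to 705 per left-out egg and 45 to 822 per later embryo. Individuals with under 50 spike-in UMIs were left out of it, so that 18 eggs and 61 later embryos entered.

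The genes lowest in eggs against the later embryos were zygotic genes of the syncytial and cellular blastoderm. Leaving aside net, which had no UMI in eggs, the 12 named by size had log2 differences between −7.30 and −7.95. CG14317, whose function is not given here, lay between 0 and 9.30 CPM in the eggs with a median of 0.679, and between 69.3 and 1081 CPM in the later embryos with a median of 527. The groups did not overlap, and the log2 difference was −7.95 ± 0.38 (SE; edgeR adjusted p = 5.19e-31). Bsg25A, a blastoderm-specific gene, lay between 0 and 5.77 CPM in eggs and between 24.6 and 353 CPM in embryos, again with no overlap (log2 −7.75 ± 0.43, edgeR adjusted p = 1.22e-26). The terminal gap gene tll lay between 0 and 5.77 CPM in eggs and between 35.8 and 346 CPM in embryos, with no overlap (log2 −7.33 ± 0.33, edgeR adjusted p = 1.7e-32). For dunk, which acts in cellularization, the eggs lay between 0 and 17.3 CPM and the embryos between 51.0 and 1548 CPM. The gene net had 0 UMIs in all 18 eggs and a median of 37.4 CPM in embryos, and against a floor of 3 UMIs over the pooled eggs its embryo mean was at least 104-fold higher. The others named by size were CG43659, SNCF, CG43184, Bro, CG14427, term and CG14014. The gap gene Kr, which was not named by size, had medians of 3.37 CPM in eggs and 299 CPM in later embryos (log2 −5.59), and twi, which specifies mesoderm, 6.24 and 697 CPM (log2 −5.96). Of the early zygotic list, 42 of 42 tested genes were lower in eggs, with a median log2 difference of −5.78 against −0.017 over all genes tested. Many of this list, and the 12 named by size, were near 0 in eggs. Such genes could pass the filter on low counts through the embryos alone, so their direction was largely fixed in advance. Genes lower in eggs and under 1 CPM in early embryos had a single annotated exon in 28.6% of cases, compared with 9.29% of all genes tested.

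Genes with both a maternal and a zygotic supply were among those lower in eggs, as were zygotic regulators of the cell cycle. The gap gene hb, supplied by the mother and then by the zygote, lay between 18.7 and 509 CPM in eggs with a median of 45.8, between 119 and 972 CPM in later embryos with a median of 411, and between 305 and 581 CPM in early embryos with a median of 463. The egg and later-embryo ranges overlapped, and hb was lower in eggs (log2 −2.39 ± 0.26, edgeR adjusted p = 1.72e-12). trbl, whose product promotes the breakdown of String, lay between 35.3 and 139 CPM in eggs and between 163 and 1946 CPM in later embryos, with no overlap (log2 −3.50 ± 0.26). Z600, a zygotic inhibitor of mitosis also called frühstart, had a median of 9.20 CPM in eggs and 1249 CPM in later embryos (log2 −7.16 ± 0.49). CycE, the G1/S cyclin, was lower by a smaller amount (log2 −1.12 ± 0.16), with medians of 430 CPM in eggs, 877 CPM in later embryos and 1361 CPM in early embryos. Among the factors that open the zygotic genome, zld was at a median of 555 CPM in eggs and 816 CPM in later embryos (log2 −0.56 ± 0.10) and Trl at 41.6 and 68.5 CPM (log2 −0.59 ± 0.14), while Clamp was higher in eggs at 253 against 141 CPM (log2 0.60 ± 0.19). With spike-in scaling none of these 3 was called (edgeR adjusted p of 0.0988 for zld, 0.0608 for Trl and 0.319 for Clamp).

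The genes higher in eggs were led by maternal RNAs that most later embryos had lost. The 12 named by size had log2 differences between 1.69 and 2.12. The RNA of bcd, the anterior morphogen (FBgn0000166, chromosome arm 3R, 6755842 to 6759466 in BDGP6.54), lay between 29.7 and 147 CPM in the left-out eggs with a median of 94.8. In later embryos it lay between 0 and 121 CPM with a median of 3.38, and in early embryos between 34.0 and 93.5 CPM with a median of 63.4. The ranges overlapped, since some later embryos held bcd within the range of the eggs (log2 1.79 ± 0.46, edgeR adjusted p = 0.00112). aurA, a mitotic kinase, lay between 46.1 and 123 CPM in eggs and between 0 and 89.5 CPM in later embryos, with medians of 81.0 and 11.2 CPM (log2 1.77 ± 0.30). rost, which acts later in myoblast fusion, had medians of 516 CPM in eggs and 23.2 CPM in later embryos (log2 1.90 ± 0.45), and Trpm, an ion channel, 44.3 and 5.30 CPM (log2 2.02 ± 0.35). The other named genes were CG4617, CG16972, CG32365, the kinase gene fray, the autophagy protease gene Atg4b, CenG1A, the mitochondrial calcium uniporter gene MCU and the PDGF/VEGF-like ligand gene Pvf1.

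**Figure D2:**
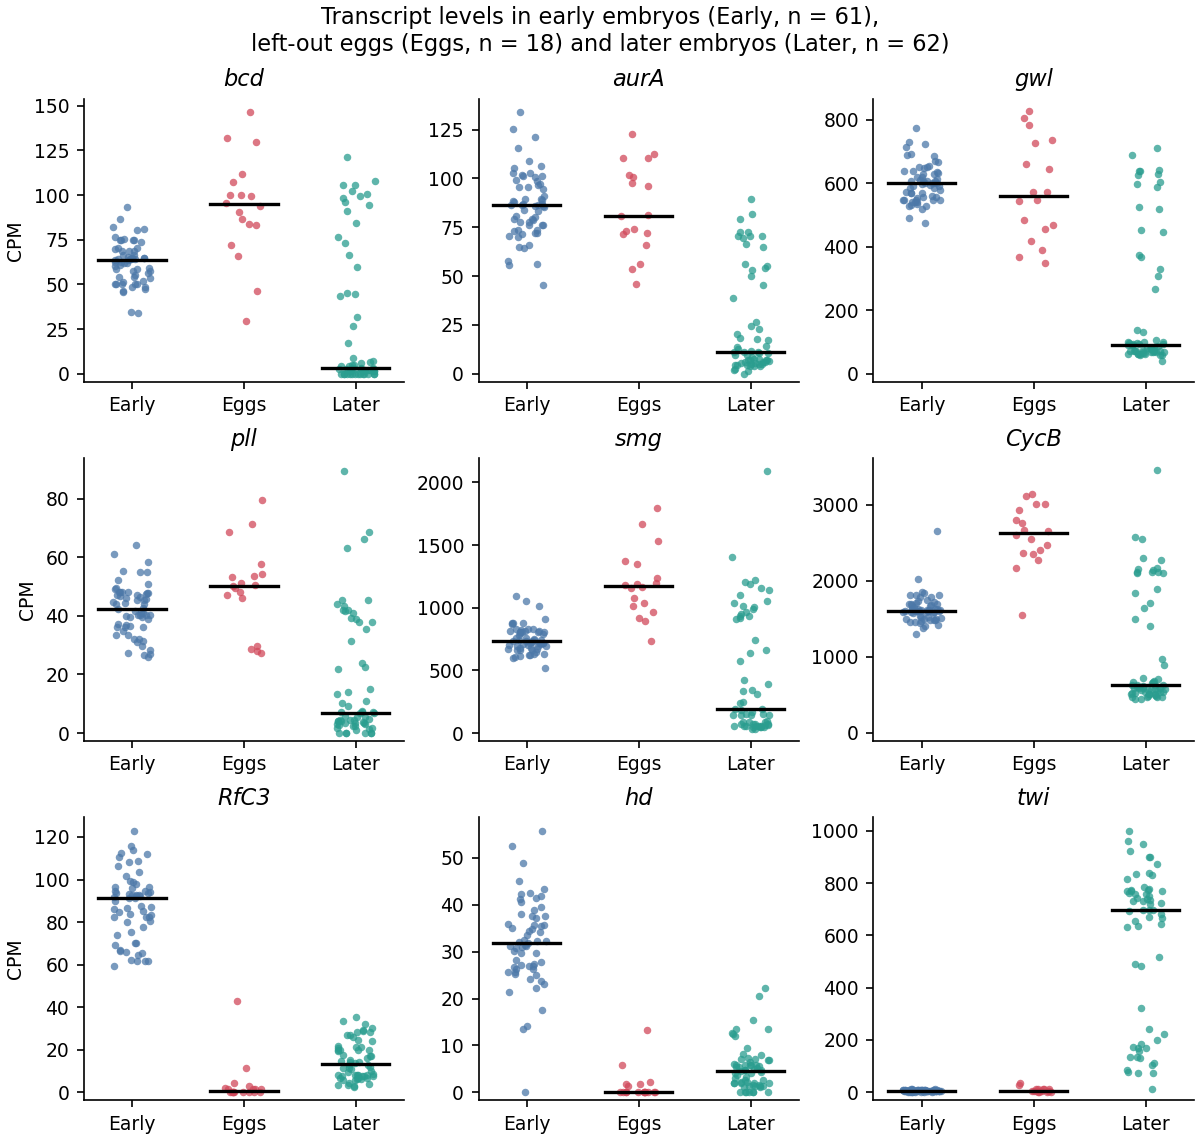
CPM of 9 genes in each early embryo (Early), left-out egg (Eggs) and later embryo (Later); 1 point is 1 individual and the bar is the median. bcd, aurA, gwl, pll, smg and CycB have egg medians near or above those of the early embryos. For these genes the later embryos reach from low levels into the range of the eggs, and for smg they are spread with no clear gap. RfC3 and hd are near 0 CPM in most eggs, and twi is high in later embryos alone.

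To ask where the eggs stood between early and later embryos, maternal RNAs lost in embryos were chosen in odd ranks and tested in even ranks, so that no embryo served in both steps. Between 31 early and 31 later embryos of odd rank, 1982 of 6190 genes (32%) were at least 2-fold lower in the later ones, had an adjusted p under 0.05 and reached 5 CPM early. The direction of that loss is the choice itself and is not a result. Here lost and held describe levels of polyA RNA, which were not followed over time in eggs of known age. Of the 1982, 1944 could be tested with the 18 eggs, 30 early and 31 later embryos of even rank. The test set the eggs against the midpoint of the 2 embryo groups on the log2 scale.

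Most of these RNAs were also lost in eggs. For 1602 of the 1944 the eggs lay nearer the later level, for 60 nearer the early level, and 282 were not called. Over all 6116 genes in that fit, 37.7% were below the midpoint and 30.2% above it. Against the early embryos alone, 1830 of the 1944 were lower in eggs and 1 was higher, with a median log2 difference of −2.56 and a background of 38.9% lower and 40% higher. Against the later embryos alone, 272 were higher in eggs, 458 lower and 1214 neither (background 19.3% higher and 24.6% lower). These comparisons share the eggs, so their counts are not independent of each other. With spike-in scaling 1 RNA was nearer the early level, and with DESeq2 27 were; the median distance from the midpoint was −1.39 on the log2 scale, against −0.009 over all genes tested.

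A per-individual measure gave the same RNAs a position from 0% at the even-rank early mean to 100% at the even-rank later mean, as the median over 1942 of the 1944 genes on log2(CPM + 1). The left-out eggs had positions from 5.91 to 155% with a median of 109%, and 16 of the 18 were above 50%. The later embryos lay between 37.3 and 136% with a median of 109%, and the early embryos between −7.94 and 8.81%. The 8 eggs of the order lay between −5.78 and 33.6% with a median of −0.68%. Most eggs lay within the range of the later embryos. The highest eggs lay above all later embryos, and 1 left-out egg, number 07 of letter O and digit 1, stood among the early embryos at 5.91%. The next eggs were at 49.4% and 70.4%, both letter O and digit 2. The 3 highest positions belonged to eggs with low totals of 223780, 290972 and 318160 UMIs and mitochondrial shares of 7.30, 6.02 and 6.03%; their part in those positions was not tested.

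**Figure D3:**
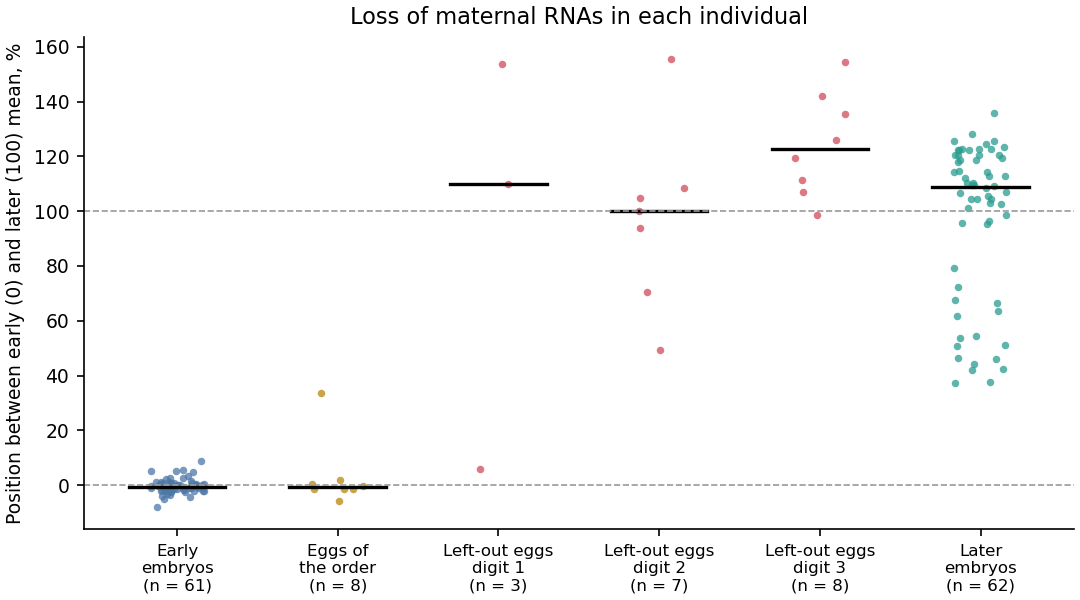
Position of each individual between the even-rank early mean (0%) and later mean (100%) over 1942 maternal RNAs, with the left-out eggs split by the digit in their names; 1 point is 1 individual and the bar is the median. All but 2 of the 18 left-out eggs are above 50%, and later embryos fall in a low and a high cluster.

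The later embryos were not uniform. The 62 of them had a gap in position between 79.1% and 95.4%, with 17 embryos below and 45 above. The 32 later embryos of digit 3 all lay above the gap, those of digit 2 lay on both sides, and the 1 of digit 1 lay below. The 31 embryos of ranks 123 to 153 spanned 37.3 to 126% and the 31 of ranks 154 to 184 spanned 95.4 to 136%. A mean over all 62 therefore mixed embryos that still held many maternal RNAs with embryos that did not. The choice and the test were repeated with the last 31 embryos only (15 of odd and 16 of even rank), called the latest embryos, a comparison that was added after the data were seen. The values given for the latest embryos are those of the 16 of even rank, which the choice of RNAs did not use.

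Many more of the lost RNAs were found on the early side against the latest embryos. Of 6198 genes, 2311 (37.3%) met the same loss rule, and 2278 of those could be tested. The eggs lay nearer the early level for 593 (26.0%) and nearer the late level for 1179 (51.8%), and 506 were not called; over all 6130 genes in that fit 31.5% lay above the midpoint and 34.5% below it. The median distance from the midpoint was −0.66 on the log2 scale over the lost RNAs and −0.006 over all genes tested. Against the even-rank latest embryos alone, 1231 of the 2278 were higher in eggs and 366 lower (background 33.3% and 37.4%). For 255 of them (11.2%) the lowest egg was above the highest of the even-rank latest embryos, which held for 331 of all 6130 genes (5.4%). All 60 RNAs found nearer the early level with all 62 later embryos were among the 593. With spike-in scaling 410 of the 593 were still called and 591 of 592 that could be fitted kept their direction.

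**Figure D4:**
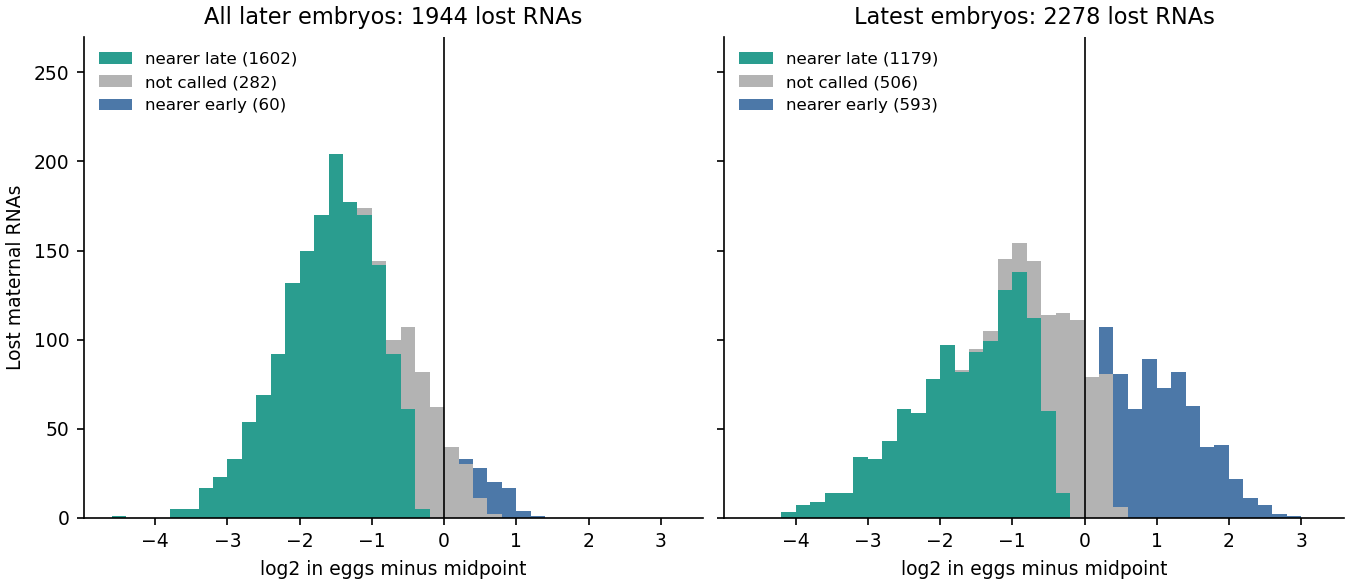
Histograms of the log2 level in left-out eggs minus the midpoint of even-rank early and later embryos, for maternal RNAs lost in odd-rank embryos; left with all later embryos (60 nearer early, 1602 nearer late), right with the latest embryos (593 and 1179). The left histogram has most RNAs below 0, and the right one has a second group above 0.

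The 10 RNAs named furthest on the early side lay between 2.37 and 2.93 above the midpoint. bcd was at 0 to 8.62 CPM in the even-rank latest embryos with a median of 1.97, below the lowest egg (29.7 CPM), and at 45.9 to 93.5 CPM in the even-rank early embryos (midpoint log2 2.76 ± 0.16, edgeR adjusted p = 3.1e-24). CG32365 lay between 92.5 and 188 CPM in eggs and between 0 and 11.5 CPM in the even-rank latest embryos (midpoint log2 2.93 ± 0.14). mal, which encodes the enzyme that sulfurates the molybdenum cofactor, lay between 17.3 and 91.5 CPM in eggs and between 0 and 3.78 CPM in the even-rank latest embryos (2.69 ± 0.17). Neither of these pairs overlapped. rost lay between 246 and 962 CPM in eggs and between 0 and 23.6 CPM in the even-rank latest embryos (2.56 ± 0.09). Hsl, the hormone-sensitive lipase of lipid droplets, lay between 195 and 532 CPM in eggs and between 0 and 57.5 CPM in the even-rank latest embryos (2.41 ± 0.13). The others were Gdap2, CG8841, csw, CG7730 and Fhos. In the same fit all of these 10 but mal were also called higher in eggs than in the even-rank early embryos. Those log2 differences ran from 0.25 for rost to 0.95 for Hsl, and mal was at 0.23 (edgeR adjusted p = 0.0753). The shares of most of these RNAs in eggs were thus above the early level. The midpoint distance is the mean of the differences from both embryo groups, so naming by it favours RNAs above the early level. In the fit with all later embryos, 40% of all 6116 genes were called higher in eggs than in the even-rank early embryos.

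Patterning RNAs of the anterior-posterior axis lay on both sides of the midpoint. Of the anterior-posterior list, 6 of 10 tested genes were higher and 1 lower in eggs than in the later embryos, beside 18.5% and 21.1% of all genes, and with spike-in scaling 2 (bcd and csw) were higher and 1 (hb) lower. Of 7 lost by the latest embryos 4 were nearer early and 3 nearer late, beside 26.0% and 51.8% of all lost RNAs. csw, the tyrosine phosphatase of Torso signalling, lay between 235 and 528 CPM in eggs, 146 and 353 CPM in even-rank early embryos and 3.00 and 53.2 CPM in the even-rank latest embryos (midpoint log2 2.47 ± 0.13). swa, needed to localize bcd RNA, lay between 583 and 1536 CPM in eggs and 29.5 and 128 CPM in the even-rank latest embryos (1.53 ± 0.09). Every egg held more of both than any of the even-rank latest embryos. The 4 early-side genes were bcd, csw, swa and cad (0.48), and the 3 late-side genes were exu (−1.13 ± 0.39), nos (−0.93 ± 0.42) and trk (−1.69). exu, another gene of bcd RNA localization, had medians of 1434 CPM in even-rank early embryos, 26.0 CPM in eggs and 16.5 CPM in the even-rank latest embryos. Its range in eggs ran from 5.17 to 1652 CPM because of the egg at position 5.91%: with all eggs exu was called higher than in the later embryos (log2 1.37 ± 0.34), and without that egg it was not (log2 −0.20, edgeR adjusted p = 0.450). The RNAs of bcd and of exu, which localizes bcd RNA in the oocyte, stood on opposite sides of the midpoint in the same eggs.

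The Toll pathway, which sets the dorsal-ventral axis, had 2 of 8 tested members, Myd88 and pll, higher and none lower in eggs than in the later embryos, with both scalings, a share near the 18.5% of all genes. Of 5 members lost by the latest embryos 4 were nearer early, beside 26.0% of all lost RNAs. Myd88, the receptor's adaptor, lay between 89.2 and 277 CPM in eggs and 2.45 and 47.6 CPM in the even-rank latest embryos (midpoint log2 1.97 ± 0.13). pll, the kinase that acts after Myd88, lay between 27.5 and 79.5 CPM in eggs and 0 and 15.0 CPM in the even-rank latest embryos (1.61 ± 0.15). Neither overlapped. The ligand gene spz (0.90 ± 0.18) and the adaptor gene tub (0.81 ± 0.18) were also on the early side, with overlapping ranges, and dl was not called (0.17).

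Cell cycle RNAs lay on both sides, while most replication RNAs lost by the latest embryos were nearer the late level in eggs as well. Of the cell cycle list, 10 of 32 tested genes were higher and 5 lower in eggs than in the later embryos (18.5% and 21.1% of all genes), and with spike-in scaling 3 (CycB, Wee1 and aurA) were higher and 4 lower. Of 16 lost by the latest embryos 7 were nearer early, 6 nearer late and 3 not called (26.0% and 51.8% of all lost RNAs were nearer early and late). CycB, the mitotic cyclin, lay between 1557 and 3140 CPM in eggs, 1307 and 2027 CPM in even-rank early embryos and 448 and 663 CPM in the even-rank latest embryos (midpoint log2 1.44 ± 0.06). twe, a Cdc25 phosphatase, lay between 79.3 and 335 CPM in eggs and 2.11 and 51.7 CPM in the even-rank latest embryos (1.97 ± 0.15). Wee1, the kinase that opposes Cdc25, lay between 109 and 275 CPM in eggs and 14.7 and 66.1 CPM in the even-rank latest embryos (1.64 ± 0.10). In each of these 3 the eggs were above all the even-rank latest embryos, and the same held for aurA (1.78 ± 0.12), CycD (1.83 ± 0.11) and mus304, the ATRIP homologue (1.47 ± 0.13). stg, the other Cdc25 gene, was partly lost in eggs: medians were 1446 CPM in even-rank early embryos, 915 CPM in eggs and 231 CPM in the even-rank latest embryos (0.59 ± 0.10). pim, which encodes securin and is in no list, lay between 337 and 1283 CPM in eggs and 41.6 and 99.6 CPM in the even-rank latest embryos (1.97 ± 0.11); it was picked out after its values were seen. On the late side were mei-41 (−2.49), Myt1 (−1.60), Rbf (−1.14), Cdk2 (−1.04), CycJ (−1.02) and dap (−0.86). Of 19 tested replication genes, 6 were higher and 4 lower in eggs than in the later embryos (18.5% and 21.1% of all genes). With spike-in scaling 0 were higher and 3 lower. Of 16 replication genes lost by latest embryos, 12 were nearer late, 3 not called and 1, Mcm10 (1.31), nearer early. Mcm3, a helicase subunit, had medians of 48.2 CPM in even-rank early embryos, 4.56 CPM in eggs and 16.4 CPM in the even-rank latest embryos (−2.01 ± 0.23), so that the egg median was below all even-rank latest embryos.

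RNAs of egg activation and of the germ plasm lay on both sides. Of 11 egg activation genes lost by the latest embryos, 3 were nearer early, 5 nearer late and 3 not called, and of 11 germ plasm genes 4 were nearer early, 6 nearer late and 1 not called, beside 26.0% nearer early and 51.8% nearer late over all lost RNAs. sra, a regulator of calcineurin needed for egg activation, lay between 161 and 437 CPM in eggs and 7.35 and 86.2 CPM in the even-rank latest embryos, with no overlap (1.75 ± 0.11). png, the catalytic subunit of the PNG kinase, was nearly gone from eggs, with medians of 96.7 CPM in even-rank early embryos, 2.83 CPM in eggs and 3.96 CPM in the even-rank latest embryos (−1.39 ± 0.31). dhd, a maternal thioredoxin that acts on the sperm chromatin, had medians of 3091, 137 and 87.8 CPM in these groups (−1.15 ± 0.27); it was called higher in eggs than in the later embryos (log2 0.87 ± 0.26), but not without the egg at position 5.91% (log2 0.07, edgeR adjusted p = 0.831), and the same held for mtrm (log2 1.00, and 0.76 without that egg, edgeR adjusted p = 0.157). Among the germ plasm genes gwl, the Greatwall kinase, lay between 349 and 826 CPM in eggs and 39.4 and 100 CPM in the even-rank latest embryos (1.33 ± 0.08). gcl and orb2 were also on the early side (0.72 and 0.94). On the late side were pgc (−1.02), nos, Hsp83 (−1.54), tud (−1.33), orb (−0.98) and Jafrac1 (−0.89). Hsp83, a chaperone RNA used in studies of maternal decay, had medians of 2275 CPM in even-rank early embryos, 147 CPM in eggs and 296 CPM in the even-rank latest embryos. vas was not called (−0.31, edgeR adjusted p = 0.504), and its call as higher than in the later embryos (log2 1.16) was lost without the same egg (log2 0.30, edgeR adjusted p = 0.585).

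The RNA of the decay factor smg was itself held. smg encodes Smaug, which brings the CCR4-NOT deadenylase to maternal RNAs. It lay between 737 and 1797 CPM in eggs, 602 and 1012 CPM in even-rank early embryos and 48.0 and 191 CPM in the even-rank latest embryos, so that every egg was above all of the even-rank latest embryos (midpoint log2 2.10 ± 0.11, edgeR adjusted p = 8.33e-27). In all later embryos it ran from 32.9 to 2090 CPM with a median of 192 (log2 1.42 ± 0.33 for eggs against the later embryos). Of 29 tested members of the decay and repression list, 6 were higher in eggs (smg, DCP1, pum, tral, pcm and Rga) and 2 lower (PAN2 and AGO2), shares near or below the 18.5% and 21.1% of all genes, and with spike-in scaling smg alone was called. Of 13 lost by the latest embryos 2 were nearer early, 6 nearer late and 5 not called, beside 26.0% and 51.8% of all lost RNAs. Not11, a CCR4-NOT subunit, had medians of 27.0 CPM in even-rank early embryos, 0 in eggs and 4.58 CPM in the even-rank latest embryos (−3.89 ± 0.37). Of 6 transcripts used in earlier work on maternal decay, bcd, smg and stg were on the early side and Hsp83, nos and pgc on the late side.

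Among the RNAs lost furthest in eggs, 10 named by size lay between −4.15 and −3.73 relative to the midpoint. RfC3, a subunit of the clamp loader, lay between 59.5 and 112 CPM in even-rank early embryos, 0 and 43.0 CPM in eggs with a median of 0.775, and 8.30 and 32.3 CPM in the even-rank latest embryos with a median of 21.2 (midpoint log2 −3.84 ± 0.28). hd, a replication gene, had a median of 32.0 CPM early, 0 in eggs and 5.78 CPM in the even-rank latest embryos (−3.74 ± 0.36). In both, most eggs were below all even-rank latest embryos and the ranges overlapped through a few eggs. For hd this rests on very few UMIs, since the lowest of these embryos was at 1.66 CPM and the egg median was 0. The others were CG31648, CG7544, CG33228, Not11, CG12333, CG4813, imd and mRpL46.

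Over all lost RNAs 51.8% were nearer late and 26.0% nearer early, and housekeeping lists are given beside these shares. Of lost proteasome genes, 11 of 11 were nearer late, led by Rpn11 (−3.07 ± 0.31) and Rpn7 (−3.05 ± 0.31) of the regulatory lid; against the later embryos 9 of 31 tested proteasome genes were lower in eggs and none higher (21.1% and 18.5% of all genes), and 4 were lower with spike-in scaling. Of 24 lost mitochondrial ribosomal protein genes 19 were nearer late and 4 nearer early. Of 12 lost tRNA synthetase genes 7 were nearer late and none nearer early. Of translation factor genes 6 of 7 were nearer late, of heat shock and chaperone genes 5 of 8 and of respiratory complex I genes 3 of 3, again with none nearer early; the shares nearer late among the tRNA synthetase and heat shock genes are near that of all lost RNAs. V-ATPase genes, which encode the vacuolar proton pump, went the other way: 5 of 8 lost were nearer early and 2 nearer late, and 8 of 16 tested were higher and 1 lower in eggs than in the later embryos. With spike-in scaling none was called higher and 1 lower. VhaAC39-1 (1.26) and Vha100-2 (1.13) led the early side, and Vha68-1, with a median of 2.73 CPM in eggs and 11.2 CPM in later embryos, was the lower one (log2 −1.99). Of 6 lost lipid droplet genes Hsl and mdy (1.30), which makes triglyceride, were nearer early and 3 nearer late. Cytoplasmic ribosomal protein genes were not among the lost RNAs, and 51 of 85 were higher and 1 (RpLP0, log2 −0.56) lower in eggs than in the later embryos, with a median log2 difference of 0.29; with spike-in scaling none of the 85 was called and the median was 0.22. Of 13 mitochondrially encoded genes tested 5 were higher and 1 lower, beside the higher mitochondrial share given above, and none was called with spike-in scaling.

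**Figure D5:**
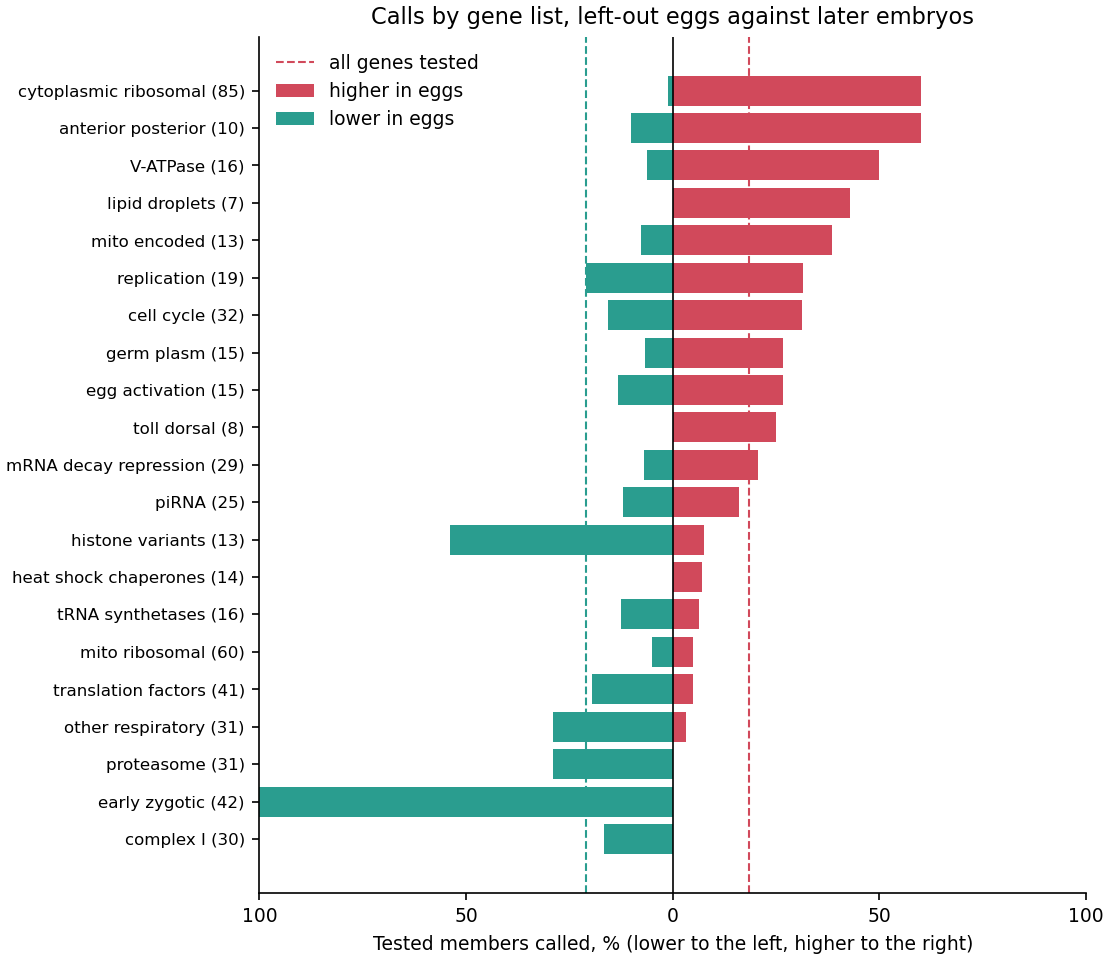
Share of tested members of each gene list with at least 7 tested members (number tested in brackets) called higher (right) or lower (left) in left-out eggs than in later embryos; dashed lines mark 18.5% higher and 21.1% lower over all 5399 genes. Among the lists shown, cytoplasmic ribosomal genes, the anterior-posterior list and the V-ATPase list reach furthest right, and early zygotic genes are all on the left.

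The RNAs nearer the early level in eggs had longer annotated 3′ UTRs. With the last 31 embryos, the median 3′ UTR was 473 bases for the 593 RNAs nearer early, 249 bases for the 1179 nearer late and 303 bases for all 2278. With all later embryos it was 392 bases for the 60 nearer early, 257 for the 1602 nearer late and 276 for all 1944. Over the 5399 genes tested in eggs against the later embryos it was 328 bases. A single annotated exon was found for 5.90% of the RNAs nearer early and 8.99% of those nearer late. These are descriptions from the BDGP6.54 annotation, with no test.

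Markers of ovarian tissue were at or near 0 in the eggs. Of 21 follicle cell markers, which would mark somatic cells of the ovary, none passed the filter on low counts and 20 were at 0 UMIs in all 18 eggs; their summed level was 0 to 1.36 CPM in the left-out eggs and 0 to 5.48 CPM in the later embryos.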

How the data were processed

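Counts were analysed as deposited: whole-number UMI counts per gene and well barcode, not normalized, with the STARsolo raw name per the file headers. The values of the authors' pseudotime table, deposited as a normalized score, were used for the column order alone. The submitters' processing notes name Trim Galore 0.6.10, SAMtools 1.17, Picard, GATK 4.4.0.0, R 4.2.1 and the builds dm6 and BDGP6. A deposited table paired well barcodes with 384 individuals, and 384 further barcode columns with no individual were not used. ERCC rows (92) were left out of totals.

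The main test was edgeR 4.0.16 (R 4.3.3) quasi-likelihood with TMM, filterByExpr and the library as a covariate, Benjamini-Hochberg adjusted; DESeq2 1.42.0 was an alternative. Standard errors are the log2 estimate over the root of F. Scripts were tested on simulated counts. Single values were compared with 100000 permutations. The p-values measure the spread between individuals, which may share mothers. Symbols were matched to BDGP6.54 (Ensembl release 115) for 17768 of 17807 genes. Genes were named as the 12 highest and 12 lowest log2 values among called genes of at least 20 CPM seen in at least 50% of the higher group, and the 10 on each side of the midpoint of at least 20 CPM early; list members could be named as well. The members and gene lists were chosen with earlier results of these data known. Library numbers name libraries and pair no individuals. Intervals and floors cover counting error only.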

Additional observations from a re-analysis of the deposited data

Results flagged for a closer look

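Of 20 groups of values checked for an individual far from the others, 2 had such a value, and chance gives about 1 in 20. Both were the summed early zygotic list of the same egg, number 02 of letter O and digit 2, at 1312.1 CPM. The other left-out eggs of digit 2, a group of 7 with it, lay between 207.04 and 290.28 CPM, and the other left-out eggs of letter O, a group of 8 with it, between 154.65 and 294.5 CPM. That egg held UMIs of 32 of the 45 genes and was above all other left-out eggs in 24 of them, with 64 UMIs of Ama, 50 of CG13465 and 38 of Brd. Among the 8 eggs below the UMI minimum, which no comparison used, number 06 of letter O and digit 1 had 11 early zygotic UMIs of 4106 in all, or 2679 CPM (exact 95% binomial interval 1338 to 4788 CPM), above the highest left-out egg used.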

How the results depend on the processing

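No gene called in eggs against the later embryos was called in the opposite direction under any alternative but 1 gene with eggs of letters A or B only. Counts higher and lower in eggs were 144 and 751 with spike-in scaling, 662 and 691 thinned to equal totals, 224 and 634 at 2-fold, 562 and 546 against the first 31 later embryos, 1795 higher against the latest 31, 597 higher in eggs of at least 400000 UMIs, 68 and 175, and 415 and 747, with eggs of digit 1 and of digit 2, 462 and 730 with letter O, and 37 and 346 with eggs and embryos of digit 2. The 60 lost RNAs nearer the early level became 26 with DESeq2 size factors, 32 without TMM, 1 with spike-ins, 34 without a filter, 27 with DESeq2, 31 thinned (964 nearer late), 4 with digit 1 (25 nearer late), 22 with digit 2, 24 with digit 3, 33 with letter O (793 nearer late), 38 with letters A or B, 39 without the egg of high zygotic RNA, 0 for RNAs lost at least 4-fold (977 nearer late), 11 with the 8 eggs of the order as the early reference and 593 with the latest embryos; the cause was not tested. Leaving out 1 library in turn gave 17 (without library 2) to 52 nearer early, and 162 to 426 higher and 241 to 586 lower in eggs than in the even-rank later embryos. Of lost RNAs, 76 were higher in eggs than in the later embryos with spike-ins, and 828 lower without the egg at 5.91%. With the latest embryos, 694 were nearer late with letter O only, and those nearer early ranged from 410 to 644. The spike-in share, 0.302 higher in eggs on the log2 scale (permutation p = 0.207), ranged from 0.147 to 0.619, the last without library 2 (p = 0.0235). Of the 24 genes named against the later embryos, 13 lost their call under digit subsets, in 24 of 573 refits. The 20 lost RNAs refitted were those named by the same rule with all 62 later embryos. That set differs in part from the 20 named above with the latest embryos. All 20 refitted RNAs lost their call under some alternative, in 48 of 471 refits. No refitted gene changed direction. Embryos with the eggs' digits were the same 62. No paired analysis was possible because library numbers do not pair individuals. Depth limits genes of few UMIs: 0 UMIs in the pooled eggs allows 0.368 CPM.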

Other observations

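Sex determination and dosage compensation genes, picked after their values were seen, were among those lower in eggs. Sxl, the switch gene of female fate, lay between 13.7 and 110 CPM in left-out eggs with a median of 23.5, between 31.7 and 2672 CPM in later embryos with a median of 286, and between 98.5 and 273 CPM in early embryos with a median of 131 (log2 −4.43 ± 0.61, edgeR adjusted p = 5.65e-09). Most eggs lay below all early embryos. msl-2, which is translated in males to assemble the dosage compensation complex, lay between 0 and 10.6 CPM in eggs and between 4.47 and 357 CPM in later embryos (log2 −5.57 ± 0.61). The noncoding RNA roX1 of that complex (lncRNA:roX1) had medians of 82.2 CPM in eggs, 2116 CPM in later embryos and 75.1 CPM in early embryos (log2 −4.15 ± 0.38), with 1 egg as high as 801 CPM.

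Genes of piRNA production, which silence transposons in the germ line, stood on both sides among the RNAs lost by the latest embryos: 4 of 14 were nearer early (qin 1.54, squ 1.45, vret 1.43 and papi 1.25), 4 nearer late and 6 not called, shares near or below the 26.0% and 51.8% of all lost RNAs. qin lay between 12.6 and 60.5 CPM in eggs and 0 and 10.1 CPM in even-rank latest embryos. The histone list had 7 of 13 members lower in eggs than in the later embryos and 1 (BigH1) higher, beside 21.1% and 18.5% of all genes, and with spike-in scaling 3 (cid, HmgZ and Caf1-105) were lower and none higher. BigH1, the embryonic linker histone, was on the early side of the midpoint (1.11 ± 0.13), and cid, the centromeric histone, on the late side (−3.08 ± 0.30), with medians of 174 CPM in even-rank early embryos, 3.13 CPM in eggs and 30.6 CPM in even-rank latest embryos.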
